A study of Homo sapiens with 12 samples.

Results

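Small non-coding RNAs and the host genes of small nucleolar RNAs (snoRNAs) were followed in LNCaP, a cell line from human prostate cancer with an active androgen receptor. The members are the genes whose symbol in the deposited table starts with SNORD, SNORA, SCARNA, SNHG, RNU and a digit, RN7S, RN5S or VTRNA, or is BCYRN1, RMRP, RPPH1, GAS5 or TRK1, and they were chosen by detection, a p-value below 0.05 for signal over background on 3 or more of 12 arrays. Of 349 probes with such a symbol, 158 met the limit, for 154 symbols, among 21959 kept probes of 47323 in all, and counts below are of probes. They comprised 57 box C/D snoRNAs, 54 box H/ACA snoRNAs, 3 snoRNAs under an RNU name, 9 RNAs of the Cajal body (scaRNAs), 16 probes of host genes, 11 spliceosomal small nuclear RNAs (snRNAs) and 8 other structural RNAs. RMRP was not kept.

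The 4 groups of 3 arrays were cells given an siRNA against ERRγ (estrogen-related receptor gamma, gene ESRRG) and then R1881, that siRNA followed by vehicle, a control siRNA followed by R1881, and the control siRNA followed by vehicle. R1881 is a synthetic androgen and was given at 10 nM for 72 h, beginning 48 h after transfection, and ethanol was its vehicle. All groups grew in RPMI without phenol red and with 2% steroid-deprived serum, medium and treatment were renewed once after 48 h, and RNA was purified on silica columns, which retain short RNAs poorly. The labels say only that samples were triplicate, so the p-values rest on how far these samples spread, and that spread may be only technical.

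Box C/D snoRNAs guide 2′-O-methylation and box H/ACA snoRNAs guide pseudouridylation of ribosomal RNA, while scaRNAs guide the same changes in spliceosomal snRNAs. Most human snoRNAs are cut from introns of a host gene, often a gene for a ribosomal protein or a non-coding RNA of the SNHG group, whereas snRNAs, U3, U13 and the transcripts of RNA polymerase III have promoters of their own. A probe for an intronic snoRNA cannot separate the mature RNA from unspliced host transcript, and in a culture fewer cells of a type and less RNA per cell cannot be told apart.

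Between 18695 and 20533 probes were detected on an array, and between 117 and 145 of the members. Arrays of a group correlated at 0.989 to 0.995 over all kept probes. ESRRG could not be checked, since its 3 probes were detected on no array, while KLK3, a textbook androgen target, was higher with R1881 by 5.20 (log2) with the ERRγ siRNA and by 5.47 with the control siRNA. All 8 luminal markers were detected on every array, against 0 of 4 basal, 2 of 4 stromal, 1 of 4 immune and 1 of 3 endothelial markers. On the second principal component of all kept probes, which held 7% of the variance, the 3 arrays of the control siRNA with R1881 lay at 15.6, -18.3 and 0.567. Replicates 1 and 2 of that group thus lay on opposite sides. In vehicle, the arrays lay at -21.2, -4.3 and -13.9 with the ERRγ siRNA, and at 6.12, 13.9 and 17.2 with the control siRNA. The vehicle groups were therefore apart on a component along which arrays of 1 group also spread widely. For the members, replicate 1 of the control siRNA with R1881 stood apart. Against the mean of replicates 2 and 3 it was higher by a median of 0.55 (log2) over the 11 snRNAs and 0.67 over the 8 other structural RNAs, and by over 0.5 for 11 of these 19 probes, against 3.03% of all kept probes. Without it, 5 of the named changes lost a call and 24 gained one. Replicate 1 of the ERRγ siRNA with R1881 also lay above its group's other arrays for part of the snRNAs. It was higher by over 0.5 for 4 of the 11 (median 0.19) and for 0 of the 8 other structural RNAs, against 1.33% of all kept probes.

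Because the detection limit chose the members, how often they were detected is no result. Detection on all 12 arrays was met by 86 of them and on 3 to 11 arrays by 72. The 12 probes detected on exactly 3 arrays, GAS5 and VTRNA1-1 among them, had raw signals of 87.9 to 119, and the 25 matching probes left out with 2 detections had 84.1 to 116.

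**Figure D1:**
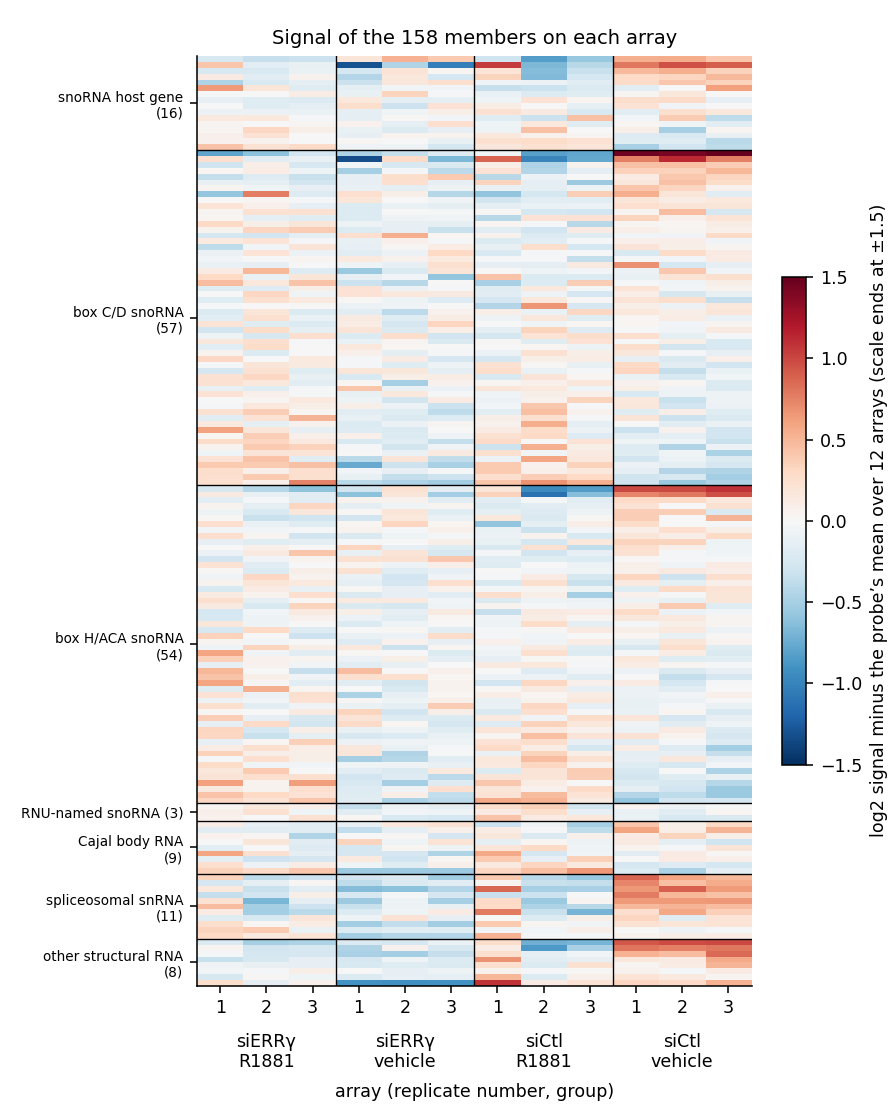
Signal of the 158 members (rows, by class, with the number of probes in brackets) on each of the 12 arrays (columns), as log2 signal minus the probe's mean over the arrays. Most snRNA and several other structural RNA rows are red on the 3 arrays of the control siRNA with vehicle, and replicate 1 of the control siRNA with R1881 differs there from replicates 2 and 3.

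R1881 moved members in both directions. With the ERRγ siRNA, 25 of 158 members were called at an adjusted p under 0.05 (limma), 21 higher and 4 lower, which is 15.8%, against 36.6% of all kept probes (17.4% higher, 19.2% lower). With the control siRNA, 47 members were called, 18 higher and 29 lower, or 29.7%, against 39.6% of all kept probes (18.9% higher, 20.7% lower). The members' share was below the background in both. Among probes detected on all 12 arrays, 19.8% of 86 members were called with the ERRγ siRNA (13 higher, 4 lower), against 45.6% of 14723 probes (22% higher, 23.6% lower). With the control siRNA it was 36.0% of members (11 higher, 20 lower), against 49.1% of probes (23.9% higher, 25.2% lower). The median member changed by 0.10 (log2) with the ERRγ siRNA and by -0.03 with the control siRNA, where all kept probes had a median of -0.01 in each. These 2 comparisons share no array.

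Several snoRNAs rose with R1881 under either siRNA. There were 10 such members, 6.33% of the 158, against 13.4% of all kept probes: SNORD88B, SNORD16, SNORD83B, SNORD35B, SNORA80, SNORA14B, SNORA7A, SNORA7B, SCARNA11 and the host gene SNHG11. SNORD88B, a box C/D snoRNA, had log2 signals of 5.33, 5.16 and 5.83 with R1881, against 4.68, 4.62 and 4.56 with vehicle, under the ERRγ siRNA. Under the control siRNA it had 5.50, 5.76 and 5.62 with R1881, against 4.79, 4.53 and 4.63 with vehicle. All 6 R1881 arrays lay above all 6 vehicle arrays. The rise was 1.77-fold with the ERRγ siRNA (log2 change 0.82 ± 0.15 SE, adjusted p = 0.000424) and 1.97-fold with the control siRNA (0.98 ± 0.15, adjusted p = 9.02e-05, limma). Its signals were low, and in the authors' table the log2 changes were 0.13 and 0.16, so their size depends on the processing.

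SNORD16, which lies in the ribosomal protein gene RPL4, had 7.07, 7.21 and 7.06 with R1881, against 6.70, 6.46 and 6.50 with vehicle, under the ERRγ siRNA. Under the control siRNA it had 7.07, 7.19 and 7.12 with R1881, against 6.52, 6.58 and 6.31 with vehicle. The groups did not overlap in either, and the log2 changes were 0.56 and 0.65. SNORD83B, in the ribosomal protein gene RPL3, had 6.45, 6.45 and 6.50 with R1881, against 5.31, 5.75 and 5.58 with vehicle, under the ERRγ siRNA. With the control siRNA its values were 6.46, 6.13 and 6.41 with R1881, against 5.98, 5.92 and 5.81 with vehicle. Its rise was 0.92 ± 0.12 with the ERRγ siRNA and 0.43 ± 0.12 with the control siRNA, and the difference of the rises did not pass (0.49, adjusted p = 0.345, limma).

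Among box H/ACA snoRNAs, SNORA80 had the highest change with the control siRNA. It had 5.45, 5.34 and 5.55 with R1881, against 4.96, 4.66 and 4.74 with vehicle, under the ERRγ siRNA. It had 5.70, 5.66 and 5.27 with R1881, against 4.55, 4.85 and 4.88 with vehicle, under the control siRNA. All 6 R1881 arrays were above all 6 vehicle arrays, and the log2 changes were 0.66 and 0.78 (0.11 and 0.13 in the authors' table). The related SNORA7A and SNORA7B, whose probes may bind each other's RNA, rose by 0.74 and 0.51 with the ERRγ siRNA and by 0.47 and 0.44 with the control siRNA. The scaRNA SCARNA11 had 5.27, 5.21 and 5.32 with R1881 under the ERRγ siRNA and was not detected on any vehicle array of that siRNA. It was at least 1.59-fold higher with R1881 there (adjusted p = 1.77e-05). For such a bound, the mean of the group with signal was set against, per array, the lowest signal of any detected probe or the probe's own signal, whichever was higher. SCARNA11 was 1.68-fold higher with R1881 with the control siRNA (adjusted p = 8.81e-05, limma).

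Members lower with R1881 under either siRNA were the host gene SNHG5 and the box C/D snoRNA SNORD95, 1.27% of the 158, against 14.5% of all kept probes. SNHG5 is described with the other hosts. SNORD95 fell by 0.47 ± 0.14 with the ERRγ siRNA and by 0.46 ± 0.14 with the control siRNA. Its neighbour in the host gene RACK1, SNORD96A, had 0.26 with the ERRγ siRNA, which did not pass (adjusted p = 0.0917), and rose by 0.56 with the control siRNA (adjusted p = 0.00114, limma). RACK1 itself had -0.02 and 0.13, and neither passed. Some members passed the threshold under one siRNA alone, and the difference of their responses was called for none. SNORD88C rose by 0.59 with the ERRγ siRNA (adjusted p = 0.0172, limma), against -0.10 with the control siRNA, and SCARNA9 by 0.54, against 0.09. With the control siRNA, SNORA3 rose by 0.50 and RNU105C by 0.41, while SCARNA13 fell by 0.56 and SNORA67 by 0.30. Larger falls there were those of SNORA12, at -1.55 (adjusted p = 8.26e-05, limma), and SNORA57. In the authors' table the changes of these snoRNAs were -0.31 and -0.47. Leaving out arrays gave -1.91 to -1.35 for SNORA12 and -1.71 to -0.97 for SNORA57, with both calls kept. SNORD104 was called lower too, a call lost in 5 of 13 such runs. SNORA29 and SNORA56, detected on 3 arrays each and on none of the control siRNA with R1881, were at least 1.07-fold and at least 1.08-fold lower there. Both calls were lost with a background offset of 50 (adjusted p = 0.12 and 0.0573) and in the authors' table (adjusted p = 0.195 and 0.101), and that of SNORA29 also with no background correction, median scaling or no filter on dim probes. SNORA61, the brightest H/ACA probe, and RNU105A and RNU86, both named like snRNAs, were called in no comparison. Without replicate 1 of the control siRNA with R1881, the control-siRNA calls of SNORD95, SNORD35B, SNORA7A and SNORA29 were lost (adjusted p = 0.0818, 0.101, 0.11 and 0.0972), SNORD88C had 0.09 and SCARNA9 -0.15, and neither of these passed.

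Of the 16 host-gene probes, for 13 symbols, 3 were called with R1881 under the ERRγ siRNA, 2 higher and 1 lower. That is 18.8%, against 36.6% of all kept probes. Under the control siRNA 8 were called, 3 higher and 5 lower, or 50%, against 39.6% of all kept probes. SNHG5, the host of the SNORD50 snoRNAs, had 9.39, 9.28 and 9.31 with R1881, against 9.81, 10.15 and 10.02 with vehicle, under the ERRγ siRNA. Under the control siRNA it had 9.33, 8.80 and 9.06 with R1881, against 10.18, 10.19 and 10.05 with vehicle. All 6 R1881 arrays lay below all 6 vehicle arrays. The fall was 1.58-fold with the ERRγ siRNA (-0.66 ± 0.13, adjusted p = 0.000796) and 2.11-fold with the control siRNA (-1.07 ± 0.13, adjusted p = 1.02e-05, limma).

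SNHG8, the host of SNORA24, had 8.60, 8.60 and 8.73 with R1881, against 8.56, 9.04 and 8.86 with vehicle, under the ERRγ siRNA. Under the control siRNA it had 9.03, 8.18 and 8.49 with R1881, against 9.31, 9.37 and 9.18 with vehicle. The groups overlapped with the ERRγ siRNA and not with the control siRNA, and the changes were -0.18 (adjusted p = 0.476) and -0.72 ± 0.17 (adjusted p = 0.00433, limma). A second SNHG8 probe, detected on 8 arrays, was not called in either (-0.17 with the ERRγ siRNA, -0.07 with the control siRNA). Its snoRNA SNORA24 had 0.47 with the ERRγ siRNA (adjusted p = 0.00822) and 0.31 with the control siRNA (adjusted p = 0.0631). The 3 probes of SNHG7 did not give one answer: with the control siRNA they changed by -0.45, -0.24 and 0.24, and the first of these was called.

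SNHG11 rose. It had 6.98, 6.79 and 6.84 with R1881, against 6.50, 6.50 and 6.29 with vehicle, under the ERRγ siRNA. Under the control siRNA it had 6.73, 6.79 and 6.74 with R1881, against 6.07, 6.27 and 6.17 with vehicle. No R1881 array overlapped a vehicle array, and the changes were 0.44 and 0.59. SNHG4 had 0.08 with the ERRγ siRNA (adjusted p = 0.553) and rose by 0.50 ± 0.09 with the control siRNA (adjusted p = 0.00044, limma). The difference between these 2 responses did not pass (-0.42, adjusted p = 0.289). SNHG3-RCC1 had 0.10 with the ERRγ siRNA (adjusted p = 0.45) and rose by 0.27 with the control siRNA (adjusted p = 0.0361), a call lost without replicate 1 of the R1881 arrays (adjusted p = 0.107). SNHG6, one of the brightest hosts, had 0.19 with the ERRγ siRNA (adjusted p = 0.531) and -0.57 with the control siRNA (adjusted p = 0.041), where its groups overlapped. That call was lost with median scaling (adjusted p = 0.0519), in the authors' table (adjusted p = 0.0904) and with no filter (adjusted p = 0.101), and the change was -0.84 without replicate 1 of the control siRNA with R1881 (adjusted p = 0.00168, limma). SNHG1, a host of many box C/D snoRNAs, differed by 0.04 or less in size in both comparisons, with SEs of 0.11.

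**Figure D2:**
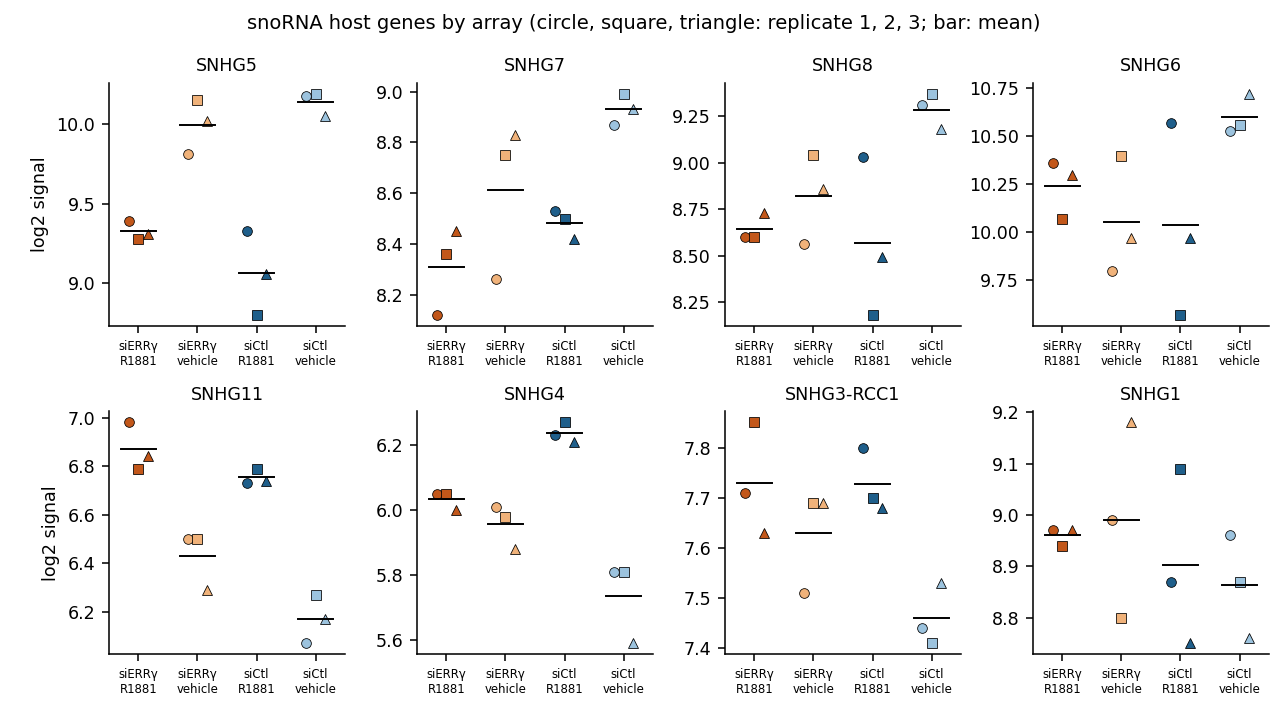
Log2 signal of 8 host-gene probes on each array, with 1 panel per gene, groups along the horizontal axis and a bar at each group's mean. SNHG5 lies lower and SNHG11 higher on all R1881 arrays than on the vehicle arrays with the same siRNA, while SNHG1 overlaps.

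Many snoRNA hosts begin with a run of C and T, a mark of transcripts whose translation follows growth signals. The 60 bases around the annotated start are shown for 5 called hosts, from RefSeq on GRCh38.p14 and 5′ to 3′ on the gene's strand, since the sequence bears on whether hosts that fell and hosts that rose differ there. Capitals mark a run of at least 5 C or T that starts with C within 5 bases of the annotated start. With R1881 under the control siRNA, the first 3 genes were called lower (SNHG7 by 1 of its 3 probes and SNHG8 by 1 of its 2) and the last 2 higher.
SNHG5: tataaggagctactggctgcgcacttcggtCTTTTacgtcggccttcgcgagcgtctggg
SNHG7: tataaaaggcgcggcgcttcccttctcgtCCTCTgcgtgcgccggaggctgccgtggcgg
SNHG8: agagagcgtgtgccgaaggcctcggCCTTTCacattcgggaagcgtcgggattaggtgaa
SNHG4: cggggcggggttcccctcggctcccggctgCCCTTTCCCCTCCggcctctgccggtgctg
SNHG11: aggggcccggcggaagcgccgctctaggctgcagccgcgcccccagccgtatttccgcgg
They lie at chr6:85678704-85678763 (minus strand) for SNHG5, chr9:136728155-136728214 (minus) for SNHG7, chr4:118278732-118278791 (plus) for SNHG8, chr5:139274071-139274130 (plus) for SNHG4 and chr20:38446624-38446683 (plus) for SNHG11.

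The 3 hosts shown that fell hold runs of 5, 5 and 6 bases, SNHG4 holds 13 and SNHG11 at most 2, so run length did not sort with direction in these 5 genes. SNHG6 and SNHG9, also called lower, and SNHG3-RCC1, also called higher, had no promoter sequence and are not part of this. Of 10 host genes with a promoter among 13 symbols, 2 (SNHG12 and SNHG4) hold a run of at least 8, against 5.37% of 35116 promoters, and 5 hold a run of at least 5, against 21.1%. The minimum of 8 was used first, and 5 was added after the counts at 8 had been seen. The motif CACGTG, which reads alike on both strands, was in the 300-base window of 1 of the 10, SNHG7, against 7.26% of all promoters. A match is a description of the letters and shows no binding.

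In vehicle, the ERRγ siRNA lowered 8 members and raised none (limma), 5.06% of the 158, against 0.228% of all kept probes (0.205% lower, 0.0228% higher). Of 86 members detected on all 12 arrays, 5 were called, or 5.81%, against 0.278% of probes so detected (0.258% lower, 0.0204% higher). The 8 called among all members were SNORD13, SNHG9, BCYRN1, TRK1, RN5S9, RNU4ATAC, RNU4-2 and RNU6-15. At an unadjusted p under 0.05 there were 43 members, or 27.2%, against 14.5% of all kept probes. All 11 snRNAs and all 8 other structural RNAs had a negative change, with medians of -0.67 and -0.73, where the median over all kept probes was 0.01. Only the call of SNORD13 was kept in every run that left out an array, and between 1 and 17 members were called across those runs. The count fell to 1 without replicate 1 or 3 of the control siRNA with vehicle, and to 2 without its replicate 2 or without replicate 1 or 3 of the ERRγ siRNA with vehicle. It was 5 without replicate 3 of the ERRγ siRNA with R1881, and 17 and 14 without replicates 1 and 2 of the control siRNA with R1881. Each vehicle group in this comparison is also the vehicle of an R1881 comparison, so a member's changes in them share those arrays.

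SNORD13 encodes U13, a box C/D snoRNA with a promoter of its own that takes part in modifying the small-subunit ribosomal RNA. It had 4.68, 4.78 and 4.94 with the ERRγ siRNA, against 6.60, 6.56 and 6.63 with the control siRNA, in vehicle. The 2 groups were far apart, and the signal was 3.46-fold lower with the ERRγ siRNA (-1.79 ± 0.17, adjusted p = 0.0015, limma). In R1881 it had 4.35, 4.52 and 4.85 with the ERRγ siRNA, against 5.07, 4.32 and 4.36 with the control siRNA, and these overlapped. It was detected on 1 of 3 arrays in each R1881 group, so these values lie near background. With R1881 it had a change of -0.23 with the ERRγ siRNA (adjusted p = 0.344) and was 4.03-fold lower with the control siRNA (-2.01 ± 0.17, adjusted p = 4.73e-07, limma). In the authors' table its log2 change was -0.4 between the siRNAs in vehicle and -0.41 with R1881 under the control siRNA. The size of these changes thus depends on the processing. SNORD3A, a U3 gene, had 0.33 with the ERRγ siRNA (adjusted p = 0.105) and fell by 0.51 with the control siRNA (adjusted p = 0.0153, limma).

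BCYRN1 (BC200), a transcript of RNA polymerase III known as a repressor of translation in neurons, showed another order. In vehicle it had 7.22, 7.21 and 7.22 with the ERRγ siRNA, against 8.46, 8.42 and 8.66 with the control siRNA. In R1881 it had 8.40, 7.99 and 8.20 with the ERRγ siRNA, against 9.22, 8.26 and 8.34 with the control siRNA. The lowest group was thus the ERRγ siRNA with vehicle, 2.46-fold below the control siRNA (adjusted p = 0.0284), and R1881 raised it 1.97-fold with the ERRγ siRNA (adjusted p = 0.00115) but not detectably with the control siRNA (0.10 ± 0.20, adjusted p = 0.745, limma). Without replicate 1 of the control siRNA with R1881, the array at 9.22, that change was -0.21 (adjusted p = 0.211), and the difference of the responses passed (1.19, adjusted p = 0.00845, limma).

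U6, the snRNA at the catalytic centre of the spliceosome and also made by RNA polymerase III, also had its lowest group with the ERRγ siRNA in vehicle, on 2 probes that may bind the same RNA. RNU6-1 had 9.14, 9.22 and 9.21 with the ERRγ siRNA, against 9.71, 9.75 and 9.77 with the control siRNA, in vehicle. In R1881 it had 9.95, 9.80 and 9.86 with the ERRγ siRNA, against 10.18, 9.64 and 9.62 with the control siRNA. In vehicle RNU6-1 missed the threshold between the siRNAs (-0.55, adjusted p = 0.101) and RNU6-15 passed (-0.67, adjusted p = 0.0361). The rise of RNU6-1 with R1881 under the ERRγ siRNA was 0.68 ± 0.13 (adjusted p = 0.000715) and that of RNU6-15 was 0.61 ± 0.12 (adjusted p = 0.000795), while with the control siRNA they changed by 0.07 and -0.08, and neither passed. Without replicate 1 of the control siRNA with R1881, RNU6-1 had -0.12 there (adjusted p = 0.361) and passed between the siRNAs in vehicle (-0.55, adjusted p = 0.0106, limma). RNU6ATAC, of the minor spliceosome, was at least 1.14-fold higher with R1881 under the ERRγ siRNA (adjusted p = 0.0165), where no vehicle array detected it, and missed the threshold with a background offset of 50 (adjusted p = 0.0516). All 3 probes of U6 and U6atac had their lowest group mean with the ERRγ siRNA in vehicle. So did 4 of the 8 probes of snRNAs made by RNA polymerase II.

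The 8 probes of snRNAs made by RNA polymerase II, among them U1 and the minor-spliceosome RNA U4atac, each had their highest group mean with the control siRNA in vehicle. Of the 3 probes of U6 and U6atac, 1 did as well. RNU4ATAC had 4.41, 4.59 and 4.64 with the ERRγ siRNA, against 5.53, 5.25 and 5.35 with the control siRNA, in vehicle. In R1881 it had 4.54, 4.66 and 4.81 with the ERRγ siRNA, against 4.84, 4.46 and 4.44 with the control siRNA. With R1881 it had 0.12 with the ERRγ siRNA (adjusted p = 0.499) and fell by 0.80 ± 0.13 with the control siRNA (adjusted p = 0.000152, limma). In the authors' table these changes were 0.01 and -0.11. RNU1-3 and RNU1G2, copies of U1 whose probes may bind the same RNA, fell by 0.84 and 0.71 with R1881 under the control siRNA (adjusted p = 0.00941 and 0.02, limma). Of the 11 snRNAs, 3 were called higher (27.3%) and none lower with R1881 under the ERRγ siRNA, against 17.4% of all kept probes higher and 19.2% lower. Under the control siRNA 6 were called lower (54.5%) and none higher, against 20.7% of all kept probes lower and 18.9% higher. Several of the 11 probes are for copies of U1 or U6 and may bind the same RNA, so they are not 11 separate RNAs. The median changes of the 11 probes were 0.17 with the ERRγ siRNA and -0.67 with the control siRNA. Over the alternatives run these medians ranged between 0.04 and 0.30 with the ERRγ siRNA and between -0.90 and -0.09 with the control siRNA.

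The other structural RNAs include parts of named particles. RN7SK, the RNA that holds the elongation factor P-TEFb inactive, has 2 probes: one, detected on all arrays, had 6.45, 6.97 and 6.66 in vehicle with the ERRγ siRNA, against 7.70, 7.66 and 7.69 in vehicle with the control siRNA. The other probe, detected on 4 arrays, lay near background. Between the siRNAs in vehicle the brighter probe did not pass (-0.99, adjusted p = 0.0645), and it passed without replicate 1 of the control siRNA with R1881 (adjusted p = 0.00812). With R1881 it had 0.05 under the ERRγ siRNA and fell by 1.20 ± 0.19 under the control siRNA (adjusted p = 0.000197, limma). In the authors' table that change was -0.49, and the change between the siRNAs in vehicle was -0.43. TRK1, a lysine transfer RNA per the deposited table, changed by -1.15 with the ERRγ siRNA in vehicle (adjusted p = 0.0359), and RN5S9, a 5S ribosomal RNA, by -1.06 (adjusted p = 0.00663, limma). In the authors' table these changes were -0.32 and -0.39. With R1881 under the control siRNA both were called lower in every run that left out arrays. TRK1 had -1.67 to -1.18 in those runs and RN5S9 -0.70 to -0.47. RN7SL1, the RNA of the signal recognition particle, had 12.60 to 12.81 on the 6 arrays of the ERRγ siRNA and 12.69 to 12.84 on the 6 of the control siRNA, and no comparison of it passed. RPPH1, the RNA of ribonuclease P, was not detected on the arrays of the ERRγ siRNA with vehicle, and no comparison of it passed.

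SNHG9, a host gene, had 8.35, 9.20 and 8.63 with the ERRγ siRNA, against 10.44, 10.62 and 10.56 with the control siRNA, in vehicle. In R1881 it had 10.07, 9.48 and 9.54 with the ERRγ siRNA, against 10.70, 8.98 and 9.24 with the control siRNA. It was the one member called in opposite directions with R1881 (0.633% of the 158, against 0.082% of all kept probes), higher by 0.96 with the ERRγ siRNA (adjusted p = 0.0384) and lower by 0.90 with the control siRNA (adjusted p = 0.0483, limma). Without replicate 1 of the control siRNA with R1881, the value at 10.70, the fall with R1881 was -1.43 (adjusted p = 0.000193, limma). Across the 13 runs that left out arrays, however, the call of this fall was lost in 8. The call of the rise with the ERRγ siRNA was lost in 5, and that between the siRNAs in vehicle in 9. In the authors' table and with no filter, neither R1881 call passed (adjusted p = 0.113 and 0.108 with the ERRγ siRNA, 0.107 and 0.13 with the control siRNA), nor did that between the siRNAs in vehicle (adjusted p = 0.0762 and 0.131). The snoRNAs SNORD104, SNORA57 and SNORA12 shared this spread, with replicate 1 of that group at 8.31, 7.01 and 5.54, against 6.45 and 6.67, 5.54 and 6.03, and 4.41 and 4.52 on replicates 2 and 3.

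**Figure D3:**
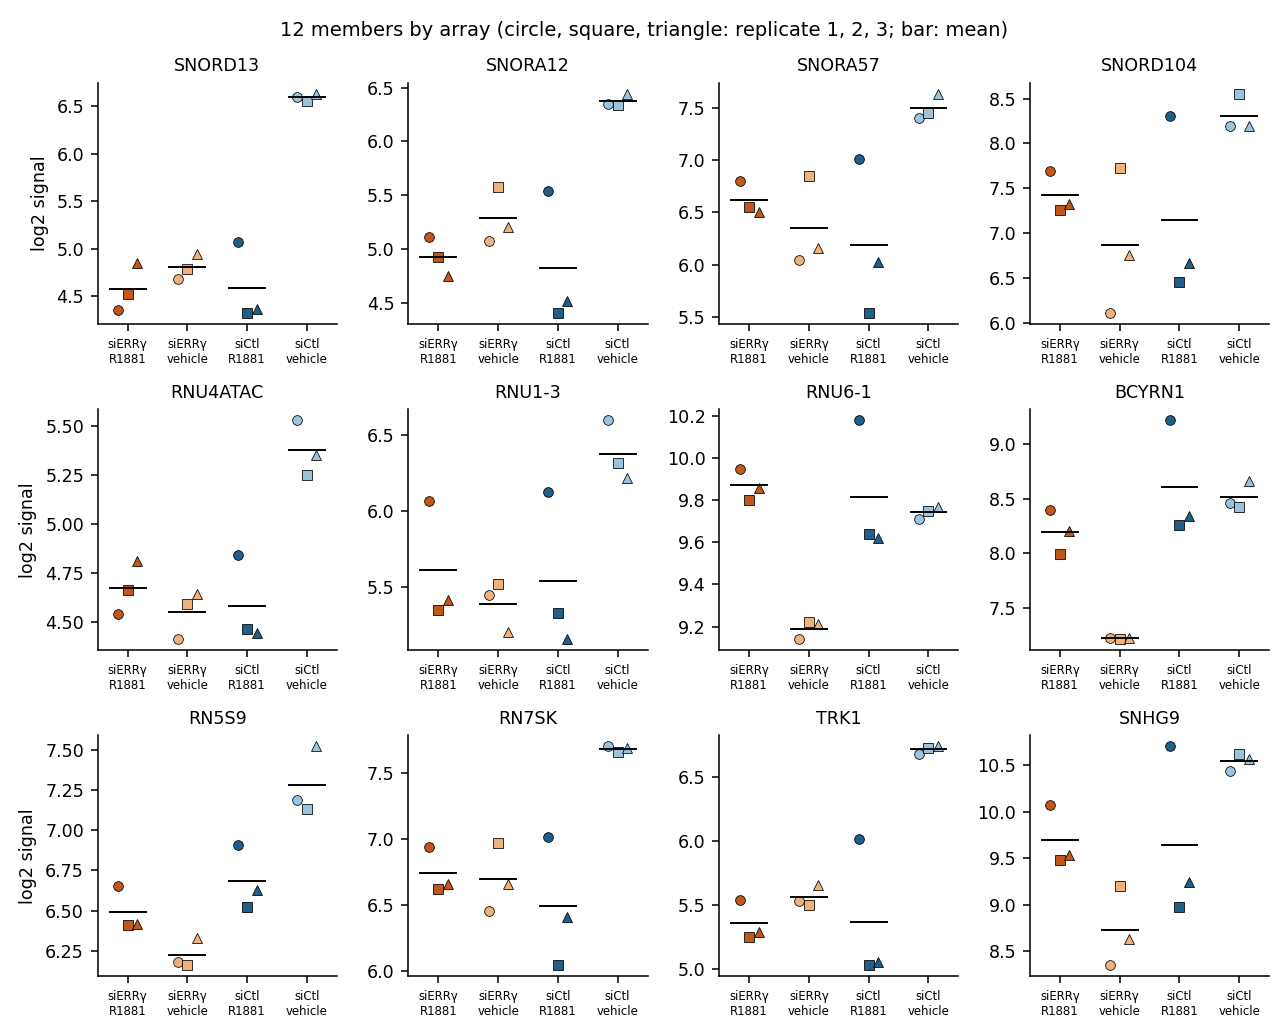
Log2 signal of 12 members on each array, with 1 panel per member, groups along the horizontal axis, a marker shape per replicate number and a bar at each group's mean. SNORD13, RNU4ATAC and TRK1 are highest on the 3 arrays of the control siRNA with vehicle, RNU6-1 and BCYRN1 are lowest with the ERRγ siRNA in vehicle, and the circle of the control siRNA with R1881 lies above its square and triangle in all panels.

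In R1881, no member and no probe at all was called between the ERRγ siRNA and the control siRNA (limma, 0% of 21959). At an unadjusted p under 0.05 there were 11 members, or 6.96%, against 6.22% of all kept probes. The smallest adjusted p among members was 0.673, for SCARNA12 and SNORD60. The median over members was 0.03.

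The difference of the 2 R1881 responses, ERRγ siRNA minus control siRNA, was called for no member and no probe (0% of 21959). At an unadjusted p under 0.05 there were 37 members, 23.4%, against 10.5% of all kept probes. All 11 snRNAs and all 8 other structural RNAs had a positive difference, with medians of 0.73 and 0.55, and SNORD13 came nearest to the threshold (1.78 ± 0.25, adjusted p = 0.098, limma). Without replicate 1 of the control siRNA with R1881, 15 members were called, all positive, or 9.49%, against 0.738% of all kept probes. They comprised 5 snRNAs, 4 other structural RNAs, 3 box C/D snoRNAs, 2 box H/ACA snoRNAs and SNHG9, with SNORD13 at 2.02 (adjusted p = 0.00106, limma). SNORD13 lay near background in R1881, so its low signal in vehicle with the ERRγ siRNA left little room for a fall there. The difference also uses the same vehicle arrays as the siRNA comparison in vehicle. Without the same replicate 1, 17 members, against 8 with all arrays, were called lower with the ERRγ siRNA in vehicle, or 10.8%, against 0.879% of all kept probes. What sets that array apart was not tested.

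**Figure D4:**
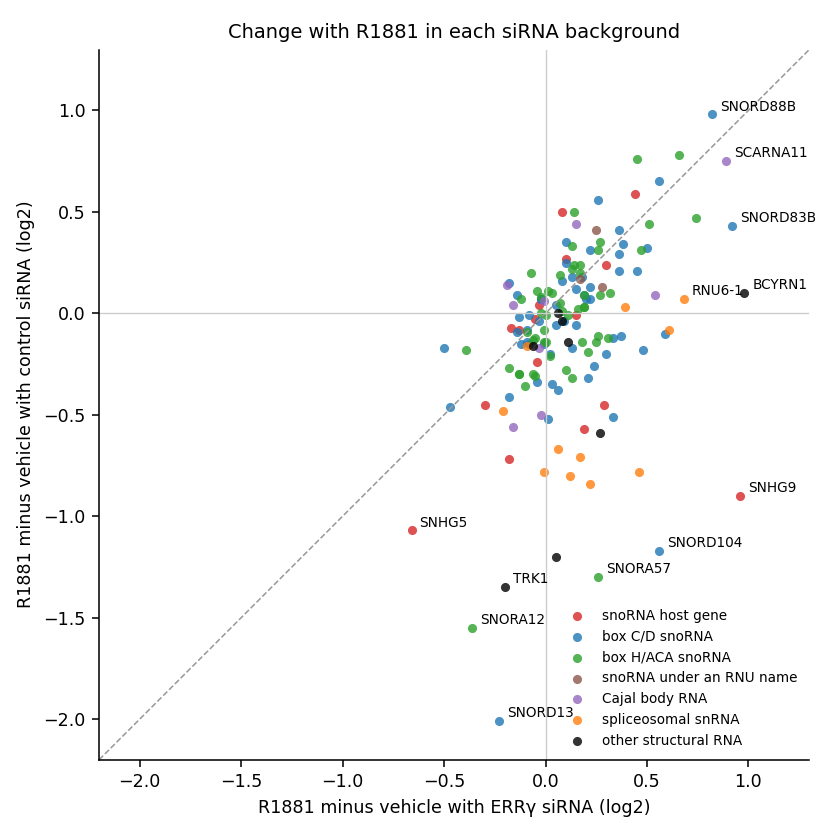
Log2 change with R1881 for each of the 158 members, with the ERRγ siRNA on the horizontal axis and the control siRNA on the vertical axis, coloured by class, with equal changes on the dashed line. SNORD88B and SCARNA11 lie high on both axes, SNHG5 low on both, and all snRNAs and other structural RNAs lie below the line.

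Where snoRNAs lie in the genome was set beside these changes. Of the 142 small-RNA probes, 137 matched a RefSeq gene by accession. The span of exactly 1 other gene held 106 of these, several genes held 16, and no gene held 15, which include SNORD13, SNORD3A and SNORD3D. For 89 snoRNAs or scaRNAs the single host had a kept probe (60 hosts). In 31 of these pairs the host symbol starts with RPL or RPS and a digit, which takes in the pseudogene RPL32P3 but not RPSA. Across the 89 pairs the change of the RNA and that of its host correlated weakly. Pearson's r was 0.181 and Spearman's rho 0.251 for R1881 with the ERRγ siRNA, and 0.0598 and 0.138 with the control siRNA. Pairs that share a host are not independent, and the strand of the host was not checked.

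With the ERRγ siRNA, 12 RNAs and 36 hosts of the 89 pairs were called, and both for 4 pairs: SNORD6 and SNORA18 fell by 0.50 and 0.39 with their host TAF1D, a factor of RNA polymerase I, which fell by 0.53, while SNORD16 and SNORA80 rose as RPL4 and URB1 fell by 0.37 and 0.49. SNORA25, SNORA32 and SNORA8, which also lie in TAF1D, had -0.09, -0.02 and -0.13 there, and none was called. With the control siRNA, 18 RNAs and 29 hosts were called, and both for 1 pair, SCARNA10 at 0.44 and its host NCAPD2, a condensin subunit, at 0.43. The RNA alone was called for 8 pairs with the ERRγ siRNA and 17 with the control siRNA, and the host alone for 32 and 28.

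**Figure D5:**
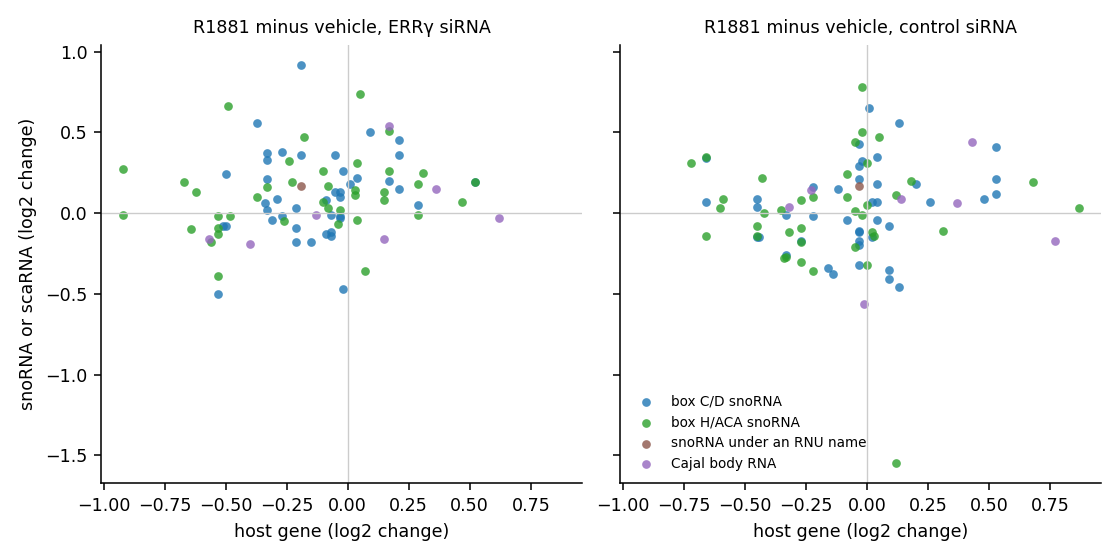
Log2 change with R1881 of a snoRNA or scaRNA (vertical axis) and of the gene that holds it (horizontal axis) for 89 pairs, with the ERRγ siRNA on the left and the control siRNA on the right. The points form no clear line in either panel.

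The proteins that assemble these RNAs were read from lists. Of 16 tested assembly and Cajal body factors, 3 rose and none fell with R1881 under the ERRγ siRNA, and 9 rose and none fell under the control siRNA. The brightest probe of each of 17123 genes was used, of which 36.7% were called with the ERRγ siRNA (16.5% higher, 20.2% lower) and 39.7% with the control siRNA (17.6% higher, 22.1% lower). BCCIP, which binds BRCA2, rose by 0.87 with the ERRγ siRNA and by 1.06 with the control siRNA, and NOLC1, a nucleolar chaperone of snoRNPs, by 0.76 and 0.67. SHQ1, an assembly factor of box H/ACA particles, had 0.03 with the ERRγ siRNA (adjusted p = 0.861) and rose by 0.67 with the control siRNA (adjusted p = 0.000164, limma).

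Among the 4 core proteins of box C/D particles, NOP58 and SNU13 rose under either siRNA, by 0.35 and 0.31 with the ERRγ siRNA and by 0.38 and 0.24 with the control siRNA. NOP56 rose by 0.53 with the control siRNA, and FBL, the methyltransferase, did not pass there (-0.20, adjusted p = 0.1). Of the 4 core proteins of box H/ACA particles, none was called with the control siRNA, while with the ERRγ siRNA NOP10 and GAR1 rose by 0.56 and 0.28 and DKC1, the pseudouridine synthase, fell by 0.64.

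Other lists varied, and some were called in 1 direction only. Of 18 tested Sm proteins and assembly factors, 2 rose and 1 fell with the ERRγ siRNA, and 6 rose and none fell with the control siRNA. SNRPA1, of the U2 particle, was higher by 1.12 and 1.11. Of 8 proteins of the signal recognition particle and its receptor, 3 rose with the ERRγ siRNA and 4 with the control siRNA, and none fell. Among 32 genes of RNA polymerase I and ribosomal RNA processing, 9 rose and 3 fell with the ERRγ siRNA, and 11 rose and 3 fell with the control siRNA. Of 18 exosome and end-processing genes 4 rose and 1 fell under either siRNA. Of 9 ribonuclease P and MRP proteins, 3 rose with the ERRγ siRNA, while 2 rose and 1 fell with the control siRNA. Of 14 nonsense-mediated decay factors, 2 rose and 4 fell with the ERRγ siRNA, and 1 rose and 3 fell with the control siRNA. Of 4 vault and La proteins, 1 fell with the ERRγ siRNA and 1 rose with the control siRNA.

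Genes of transcription were called in both directions. Of 22 tested genes of RNA polymerase III and its factors, 5 rose and 3 fell under either siRNA, among them POLR3G, which was higher by 0.84 with the ERRγ siRNA and 1.18 with the control siRNA, and its paralogue POLR3GL, which was lower by a log2 change of -1.17 with the ERRγ siRNA and was also called lower with the control siRNA. Of 23 tested genes for snRNA transcription and end formation, 4 rose and 6 fell with the ERRγ siRNA, and 5 rose and 6 fell with the control siRNA. SNAPC5, a subunit of the snRNA-activating complex, was higher by 0.83 and 1.23. Of 9 tested genes of the 7SK particle and P-TEFb, 1 rose and 2 fell with the ERRγ siRNA, and 1 rose and 3 fell with the control siRNA, the one that rose being HEXIM1 in both, by 0.58 and 0.83. No gene of any list was called between the siRNAs, in vehicle, where 0.251% of all genes were called (0.0175% higher, 0.234% lower), or in R1881, where 0% were.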

How the data were processed

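The authors deposited a raw bead signal per probe and array, an intensity on a linear scale per the file headers, and beside it a detection p-value. They also deposited normalized values, whose range fits a log2 scale, used here only as an alternative. Which software and normalization they used is not given in the sources used here, nor is the slide. Here nec of limma removed the background (offset 16), and the signals were quantile-normalized and put on the log2 scale, without 92 spike-in probes (limma 3.58.1, R 4.3.3, Python 3.11.15, pandas 2.3.3, matplotlib 3.10.9). lmFit and eBayes estimated a mean for each group over all 21959 kept probes. P-values are two-sided and Benjamini-Hochberg adjusted over them, and errors of changes are standard errors. The number of arrays limits the precision, and the 95% intervals of the members had a median half-width of 0.302. Groups came from the sample titles. The fit was tested on simulated data.

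The members and lists were chosen with earlier results of these data known. Reported members were a fixed set of 7 symbols, the 2 brightest probes per class, up to 4 highest and 4 lowest non-overlapping calls per class and R1881 comparison, the calls of the siRNA comparisons, and probes at the detection limit. Up to 2 rising and 2 falling called genes per list were eligible. Other members, hosts and list genes in the text were chosen after their values were seen. Symbols are those of the deposited table. RNU105A, RNU105C and RNU86, which it defines as nucleolar, were set apart from the snRNAs after the table was read. The design asked for hosts on the same strand. The RefSeq table used gives no strand, so the single gene that spans the RNA was used. Host pairs were first counted over all small RNAs, giving 1 pair more, and then limited to snoRNAs and scaRNAs, as the design states.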

Additional observations from a re-analysis of the deposited data

How the results depend on the processing

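No called change of a named member reversed under an alternative run. Of 1428 alternative values for the 69 called changes, 175 missed the threshold. Of 4362 for the 211 not called, 140 had the other sign, none of them past the threshold, and 90 with the reported sign passed it. With no array left out, other named calls not kept, beside those given above, were RNU105C, SCARNA9, SNORA7A, RNU6ATAC and RNU4-2 with no background correction. With median scaling they were SNORA18, SNORA67, SNORA7A, SNORD35B, SNHG7 and SNHG3-RCC1. In the authors' table they were BCYRN1, RNU4-2, SCARNA9, SNORA7A, RNU6ATAC and SNORD104. With no filter they were BCYRN1, RNU4-2, RNU6-15, RNU1G2, TRK1, SCARNA9, SNORA7A and SNORD104. With the replicate number as a block, the calls between the siRNAs in vehicle were lost for TRK1, SNHG9, RNU4-2, RNU4ATAC and RNU6-15. Lost there too were the R1881 calls under the control siRNA of SNORD104, SNHG3-RCC1, SNHG6 and SNHG9. With one probe a symbol, the R1881 call of SNHG9 under the control siRNA was lost (adjusted p = 0.051, limma). Members near background have few detections, which limits their precision.

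The count of 8 members lower with the ERRγ siRNA in vehicle became 18 with a background offset of 50, 16 with no background correction, 15 with median scaling and 3 with no filter on dim probes. Leaving out 1 array gave 1 to 17. The count of 0 for the difference of the R1881 responses became 1 with the offset of 50, with no background correction, with median scaling and in the authors' table, and 0 to 15 when 1 array was left out. Without both R1881 arrays numbered 1, an alternative chosen after seeing the data, these counts were 18 and 10. In all these cases the cause was not tested. With R1881, leaving out 1 array gave 19 to 27 calls with the ERRγ siRNA and 37 to 47 with the control siRNA.

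The median of snRNAs with the ERRγ siRNA in vehicle (-0.67) was -0.46 with the offset of 50, -0.33 with no background correction, -0.19 in the authors' table and -0.50 with no filter. That of other structural RNAs (-0.73) was -0.49, -0.35, -0.23 and -0.45 in the same order, -1.06 for probes detected on all 12 arrays and -0.99 with one probe a symbol. That of box C/D snoRNAs (-0.06) was -0.01 with no background correction, in the authors' table and with no filter, -0.10 on all 12 arrays, and -0.10 to -0.03 with 1 array left out. That of Cajal body RNAs (-0.19) was -0.02 in the authors' table, 0.01 with no filter and 0 on all 12 arrays. With R1881, the median of box C/D snoRNAs under the ERRγ siRNA (0.13) was 0.06 with the offset of 50, 0.04 with no background correction, 0.02 in the authors' table and with no filter, and 0.09 to 0.15 with 1 array left out. That of host genes under the control siRNA (-0.07) was -0.24 on all 12 arrays and -0.20 to -0.06 with 1 array left out. In R1881, the host-gene median between siRNAs (0.06) was 0.13 with median scaling and -0.03 to 0.08 with 1 array left out. The correlation of RNA and host with the ERRγ siRNA and R1881 (0.181) was -0.0224 in the authors' table, that between siRNAs in vehicle (0.0823) was 0.216 on all 12 arrays, and that in R1881 (0.0151) was -0.12 to 0.0892 with 1 array left out.

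Arrays share replicate numbers, but the numbers did not pair them: correlations of same-numbered arrays' deviations ran between -0.25 and 0.115, and 4 of 12 arrays correlated best with their own number. With the number as a block, 24 and 44 members were called with R1881 under the ERRγ and control siRNAs, 3 with the ERRγ siRNA in vehicle, and 0 for the other comparisons. The slide as a block was not run, since the headers give none.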
